A study of Homo sapiens with 8 samples.

Results

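The genes described here encode subunits of the transcription factor NF-kB and the proteins whose genes NF-kB itself switches on to limit its own activity. They were chosen by name, with earlier results of these data known. They are the subunit genes RELA, RELB, REL, NFKB1 and NFKB2, the inhibitor genes NFKBIA, NFKBIE and TNFAIP3, and the response genes TNFAIP2 and BIRC3. Of the 10 genes, 9 had a probe set carrying 1 gene symbol, 19 such probe sets in all, out of 19775 genes and 41091 probe sets. BIRC3 had no such probe set in the platform annotation and is not analysed here. RNA came from 2 human breast cancer lines, T47D (luminal, oestrogen receptor-positive) and MDA-MB-231 (triple-negative, mesenchymal). Each line was infected with a lentivirus encoding a short hairpin RNA and kept in puromycin; the hairpin was a control (shCtrl) or targeted the mRNA of XBP1 (shXBP1), a transcription factor that responds to unfolded proteins in the ER. All 4 groups, the controls included, were kept without glucose in 0.1% O2 for 24 h, with 2 arrays each, so no group shows the lines at rest. The sources used here do not give the hairpin sequences or say whether cells were pools or clones. The labels call the replicates biological, but do not say that cultures or infections were separate, so the p-values reflect no more than the spread between these arrays, which may be technical.

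NF-kB dimers are held in the cytoplasm by inhibitory proteins of the IkB family until receptors such as those for TNF or interleukin-1 activate the IkB kinases, which mark the inhibitors for destruction. The freed dimers then induce, among other genes, NFKBIA and TNFAIP3, whose products shut the signal down, and the genes of several subunits. A separate route, through the kinase encoded by MAP3K14, processes the NFKB2 product so that it can pair with RELB. Stress in the ER can reach NF-kB, because the sensor IRE1, which splices XBP1 mRNA, also binds adaptor proteins of the TNF receptor. MDA-MB-231 is known for constitutive NF-kB activity.

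Upstream sequences were taken from RefSeq (GRCh38.p14), whose promoter table held windows for 8 of the 10 genes, 7 of them measured. In the 250 bases before each start, both strands were searched for GGGNN followed directly by TTTCC (N is any base), a form of the NF-kB motif. It was present for 5 of the 7 measured genes (6 of their 11 windows), against 1.73% of all 35116 windows and 2.12% of the 27305 genes with a window. A gene with several windows has more chance of a match. The looser textbook NF-kB consensus, which overlaps it, was in the same number of these genes and windows and in 9.96% of all windows. The 150 bases before the start are printed for these 5 genes because they held the motif, whatever their expression. Capitals mark the motif, read on either strand.
TNFAIP3 (chr6:137867109-137867258, plus strand): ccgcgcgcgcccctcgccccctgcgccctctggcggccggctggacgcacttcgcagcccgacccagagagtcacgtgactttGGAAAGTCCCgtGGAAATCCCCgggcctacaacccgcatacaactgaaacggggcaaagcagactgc
NFKBIA (chr14:35404750-35404899, minus strand): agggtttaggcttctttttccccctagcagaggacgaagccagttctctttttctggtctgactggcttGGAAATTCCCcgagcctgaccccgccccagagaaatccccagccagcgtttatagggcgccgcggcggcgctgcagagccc
REL (chr2:60881424-60881573, plus strand): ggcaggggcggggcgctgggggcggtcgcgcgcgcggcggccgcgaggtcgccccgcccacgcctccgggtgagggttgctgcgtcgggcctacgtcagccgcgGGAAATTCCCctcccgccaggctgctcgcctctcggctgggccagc
NFKB1 (chr4:102501209-102501358, plus strand): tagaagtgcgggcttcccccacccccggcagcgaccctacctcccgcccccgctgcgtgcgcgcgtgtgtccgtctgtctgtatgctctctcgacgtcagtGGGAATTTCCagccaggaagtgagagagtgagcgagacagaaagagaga
NFKB2 (chr10:102395555-102395704, plus strand): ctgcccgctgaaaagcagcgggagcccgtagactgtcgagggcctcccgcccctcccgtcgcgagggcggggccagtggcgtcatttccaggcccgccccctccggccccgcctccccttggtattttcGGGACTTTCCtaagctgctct
TNFAIP3 held the motif at 2 places, beginning 67 and 55 bases before the start, NFKBIA at 81, REL at 46, NFKB1 at 49 in 1 of its 2 windows and NFKB2 at 21 in the window shown. A second of the 3 NFKB2 windows held it 78 bases before its start. The windows of RELA and TNFAIP2 had no match in these letters. A match is a description of sequence and not evidence of binding.

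All levels are log2 values from RMA, which corrects background, normalizes arrays by quantiles and summarises each probe set. Each gene is given by its brightest probe set over the 8 arrays, changes are log2 fold changes with limma standard errors (SE), and a gene is said to have risen or fallen when its p-value, adjusted over all genes, was under 0.05. XBP1 fell 35.4-fold in T47D (12.49 ± 0.10, SD, n = 2, to 7.34 ± 0.26) and 14.4-fold in MDA-MB-231 (10.76 ± 0.10 to 6.91 ± 0.31) by its brightest probe set. Averaged over all its probe sets, XBP1 changed less, by -2.69 (T47D) and -1.83 (MDA-MB-231) on the log2 scale. The 8 luminal markers averaged 12.55 to 12.94 on T47D arrays and 7.88 to 8.53 on MDA-MB-231 arrays, and the 8 mesenchymal markers 5.74 to 6.01 and 9.28 to 9.55. ESR1, GATA3 and CDH1 lay below the median of all probe sets (5.90) in MDA-MB-231, as did ZEB1, CAV1 and AXL in T47D. Other markers did not divide the lines in this way. In both MDA-MB-231 groups 5 of the 8 luminal markers lay above the median, and in both T47D groups 3 of the 8 mesenchymal markers did. With shCtrl, 5 mesenchymal markers passed as higher and 1 as lower in MDA-MB-231. FN1 averaged 9.43 in T47D shCtrl and 8.58 in MDA-MB-231 shCtrl. The luminal mean was lower with shXBP1 in T47D (12.55 to 12.56 against 12.90 to 12.94) and higher in MDA-MB-231 (8.36 to 8.53 against 7.88 to 8.13). Single luminal markers differed. Of the 8, 1 rose and 3 fell in T47D, with a median change of 0.03. In MDA-MB-231, 3 rose and none fell. The part of the shift in the luminal mean in the results was not tested. The 6 leukocyte markers measured averaged 4.95 to 5.19 and the 4 endothelial markers 5.06 to 5.64, with PTPRC at 3.88 to 4.09 and CDH5 at 4.34 to 5.18. In every group, however, 2 of these 6 and 2 of these 4 lay above the median of all probe sets. ITGAM (6.02 to 6.25), PECAM1 (6.48 to 6.77) and VWF (5.95 to 6.41) were above it in all 4 groups. Replicate arrays correlated at 0.996 to 0.998, and the labels name no batch.

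In T47D, knockdown of XBP1 raised 5 of the 9 NF-kB genes and lowered 1. TNFAIP3 rose most, 2.06-fold, followed by RELB, NFKBIA, NFKB1 and REL at 1.73-fold to 1.44-fold, and TNFAIP2 fell 1.61-fold. Over all genes tested, 15.5% rose and 13.5% fell in this comparison, 29.1% in all. Shares over all genes, here and below, include dim genes, with every group mean below the median of all probe sets. All 9 members lay above that median in every group. With dim genes left out, 6238 instead of 5746 genes were called in T47D and 3985 instead of 3410 in MDA-MB-231, out of fewer genes. The median change of the 9 genes was 0.53, against -0.02 over all genes. Because the genes were chosen with earlier results of these data known, such counts and medians are descriptions. These 6 calls held in all 15 alternative analyses. RNA came from whole cultures, so a change in the share of responding cells and a change in level per cell cannot be told apart.

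Among the subunits, RELB, the partner of the processed NFKB2 product, read 6.80 and 6.89 on the T47D shCtrl arrays and 7.66 and 7.62 on the shXBP1 arrays. The shXBP1 arrays were both higher, and the change was 0.79 (SE 0.117, adjusted p = 0.00165). NFKB1, which encodes the precursor of a DNA-binding subunit without a transactivation domain, went from 8.18 and 8.40 to 8.99 and 8.97. Its change was 0.70 (SE 0.0992, adjusted p = 0.00141), again with no overlap of the groups. REL, the subunit c-Rel best known from lymphocytes, went from 8.24 and 8.26 to 8.71 and 8.85, a change of 0.53 (SE 0.098, adjusted p = 0.00497), or 0.82 averaged over its probe sets. RELA, the main transactivating subunit, read 10.17 and 10.08 with shCtrl and 10.30 and 10.23 with shXBP1. The arrays did not overlap, but the difference of 0.14 did not pass (adjusted p = 0.347, 95% interval -0.09 to 0.37). NFKB2 read 7.44 and 7.47 against 7.29 and 7.26, a difference of -0.18 that did not pass either (adjusted p = 0.158).

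Of the feedback inhibitors, TNFAIP3, which encodes a ubiquitin-editing enzyme that ends signalling from the TNF receptor, read 8.75 and 8.51 with shCtrl and 9.68 and 9.66 with shXBP1. All of the knockdown arrays were higher, by 1.04 (SE 0.111, adjusted p = 0.000359). NFKBIA, which encodes the inhibitor IkB-alpha, read 11.48 and 11.39 against 12.23 and 12.20. The change of 0.78 (SE 0.0988, adjusted p = 0.000819) became 0.31 (adjusted p = 0.0246) when its second, dim probe set was averaged in. NFKBIE, for the related IkB-epsilon, read 7.84 and 7.74 against 7.90 and 7.98 and did not pass (0.15, adjusted p = 0.314, 95% interval -0.08 to 0.38). TNFAIP2, a TNF-induced gene of cell-membrane protrusions, was the only member that fell, from 7.86 and 8.08 to 7.35 and 7.21 (-0.69, SE 0.122, adjusted p = 0.00393).

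**Figure D1:**
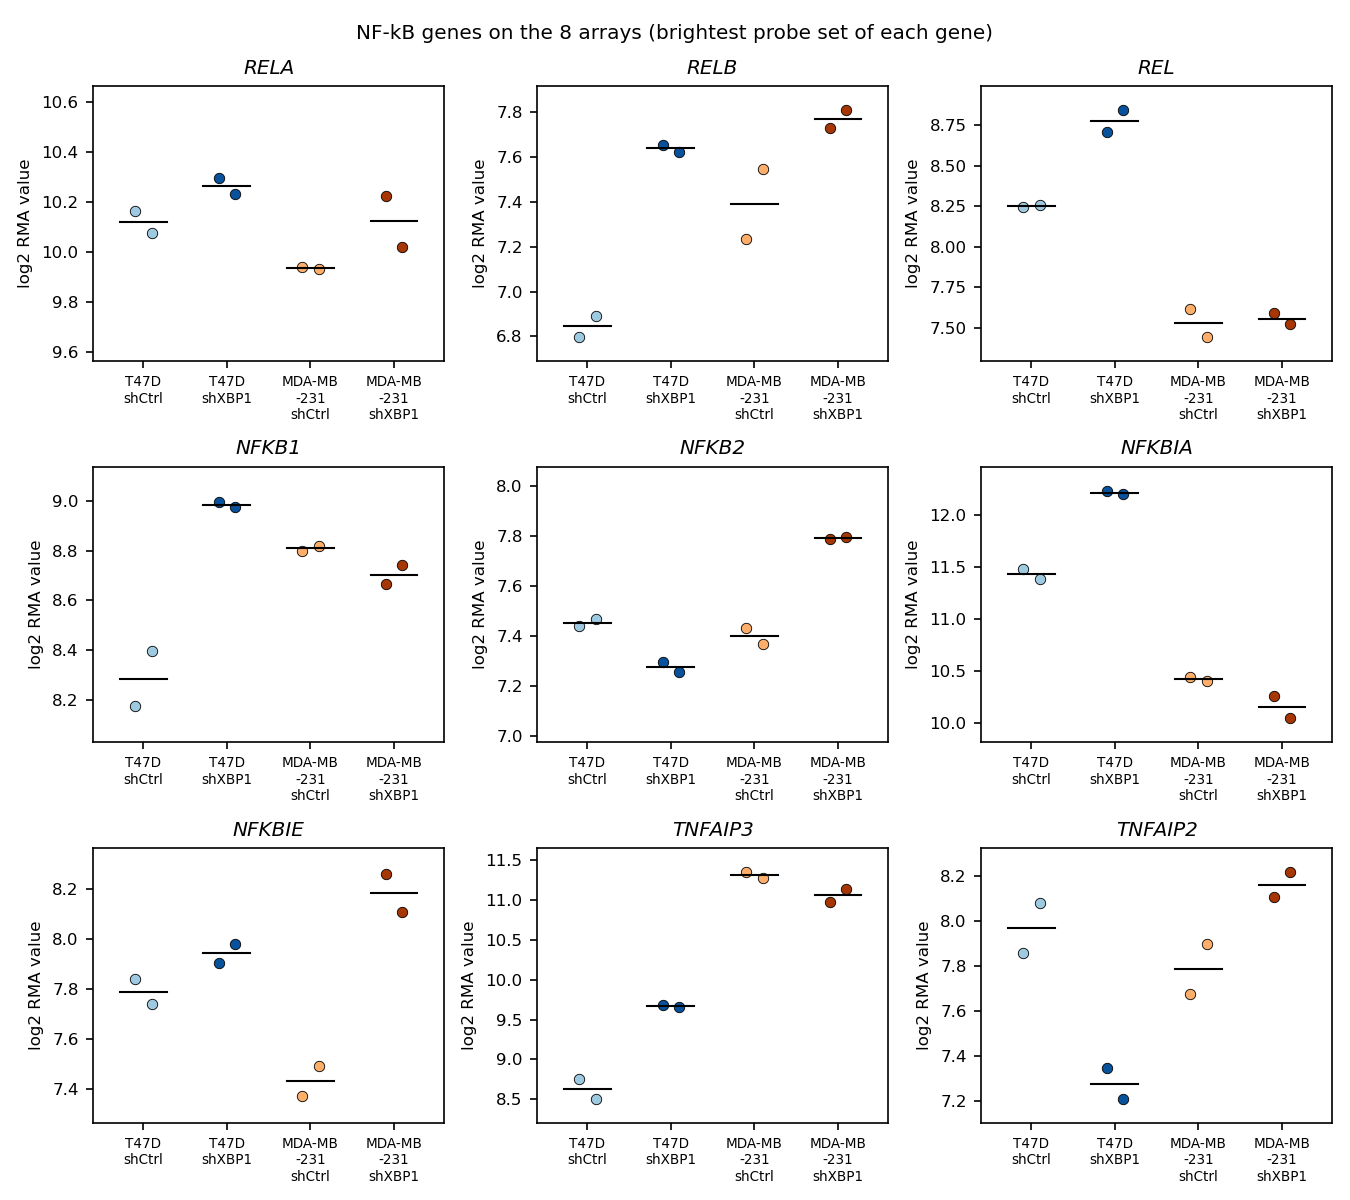
Log2 RMA values of the 9 measured NF-kB genes on the 8 arrays, with the 4 groups of line and hairpin along the horizontal axis, 1 point per array and a line at each group mean; each panel has its own vertical range. The T47D shXBP1 arrays lie above the shCtrl arrays for RELB, REL, NFKB1, NFKBIA and TNFAIP3 and below them for TNFAIP2, while in MDA-MB-231 NFKBIE (7.43 to 8.18 in the mean) and NFKB2 (7.40 to 7.79) are higher with shXBP1.

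In MDA-MB-231, other members rose. NFKBIE rose 1.69-fold and NFKB2 1.31-fold, none of the 9 genes fell, and 7 did not pass. At an unadjusted p under 0.05, limma gave 5 of the 9 (and 5921 of all 19775 genes), of which 1, NFKBIA, was lower. Of all genes tested, 10.6% rose and 6.68% fell, 17.2% in all. The median change of the members was 0.19, against 0.03 over all genes. Without MDA-MB-231 shXBP1 replicate 1, only NFKBIE passed. The difference between 3' and 5' probe sets of ACTB, a measure of RNA quality, was 1.209 to 1.302 on the shCtrl and 0.89 to 1.10 on the shXBP1 arrays of this line. For GAPDH the same measure was 0.27 to 0.33 on the shCtrl and 0.30 to 0.32 on the shXBP1 arrays. The part of RNA quality in these results was not tested.

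NFKBIE read 7.37 and 7.49 on the shCtrl arrays of MDA-MB-231 and 8.26 and 8.11 on the shXBP1 arrays. The change of 0.75 (SE 0.0989, adjusted p = 0.0023) lay well beyond the spread of the replicates and passed in all 15 alternatives. NFKB2 went from 7.43 and 7.37 to 7.79 and 7.80 (0.39, SE 0.0816, adjusted p = 0.0153). Its call was lost without shCtrl replicate 2 (adjusted p = 0.0697) or shXBP1 replicate 1 (0.0512), in a fit of the 4 arrays of this line alone (0.0784) and averaged over its probe sets (0.16, adjusted p = 0.239).

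The other members of MDA-MB-231 changed by less. RELB read 7.23 and 7.55 with shCtrl and 7.73 and 7.81 with shXBP1, a difference of 0.38 (adjusted p = 0.0635) that passed when dim genes were left out (0.039) or without shCtrl replicate 2 (0.54, adjusted p = 0.0247), and was 0.23 without shCtrl replicate 1. TNFAIP2 read 7.68 and 7.90 against 8.10 and 8.22 (0.37, adjusted p = 0.0767, and 0.0489 with dim genes left out). RELB and TNFAIP2 thus had higher values with shXBP1 on every array of this line, without passing the main test. Such a lack of overlap says little, since exact permutation of 2 against 2 arrays cannot go below p = 0.333. It was also seen for TNFAIP3, NFKBIA, NFKB1 and RELA in this line, and its share over all genes was not counted. TNFAIP3 read 11.35 and 11.27 against 10.97 and 11.14 (-0.26, adjusted p = 0.17), and NFKBIA 10.44 and 10.41 against 10.26 and 10.05 (-0.27, adjusted p = 0.109). Both inhibitor genes were lower on the knockdown arrays with no overlap, and NFKBIA passed when limma used a mean-variance trend and robust moderation (adjusted p = 0.0152). Averaged over its probe sets, TNFAIP3 passed too (-0.47, adjusted p = 0.0214). NFKB1 read 8.80 and 8.82 against 8.67 and 8.74 (-0.11, adjusted p = 0.538, 95% interval -0.34 to 0.13). RELA read 9.94 and 9.93 against 10.23 and 10.02 (0.19, adjusted p = 0.254). REL read 7.61 and 7.44 against 7.59 and 7.52, and its groups overlapped (0.03, adjusted p = 0.894, 95% interval -0.20 to 0.26).

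The knockdown effects of the lines were compared directly, by subtracting the effect in T47D from that in MDA-MB-231. This difference passed for 7 of the 9 genes, 3 positive and 4 negative, where 24.8% of all genes passed, 13.0% positive and 11.8% negative. It was negative for TNFAIP3 (-1.3, SE 0.157, adjusted p = 0.00108), NFKBIA (-1.05, SE 0.14, adjusted p = 0.0016), NFKB1 (-0.80, SE 0.14, adjusted p = 0.00516) and REL (-0.50, SE 0.139, adjusted p = 0.0342), which are 4 of the 5 genes that rose in T47D. It was positive for TNFAIP2 (1.06, SE 0.172, adjusted p = 0.00368), NFKBIE (0.60, SE 0.14, adjusted p = 0.0174) and NFKB2 (0.57, SE 0.115, adjusted p = 0.0097). RELB, higher with shXBP1 in both lines, did not pass (-0.41, adjusted p = 0.116, 95% interval -0.80 to -0.03 before adjustment), except without MDA-MB-231 shCtrl replicate 1 (-0.57, adjusted p = 0.0341); without MDA-MB-231 shCtrl replicate 2 it was -0.26. RELA gave 0.04 (adjusted p = 0.862, 95% interval -0.28 to 0.37). The REL difference lost its call without any 1 array other than MDA-MB-231 shCtrl replicate 2 (adjusted p = 0.0578 to 0.128), after quantile normalization was applied again (-0.44, adjusted p = 0.0552) and with the replicate block (0.0553), and was -0.957 averaged over its probe sets. The NFKBIE difference did not pass after removal of T47D shCtrl replicate 1 (adjusted p = 0.061), T47D shXBP1 replicate 1 (0.072) or MDA-MB-231 shCtrl replicate 1 (0.0551). Averaged over probe sets, NFKB2 did not pass (0.28, adjusted p = 0.117) and NFKBIA was -0.48 (adjusted p = 0.0187).

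**Figure D2:**
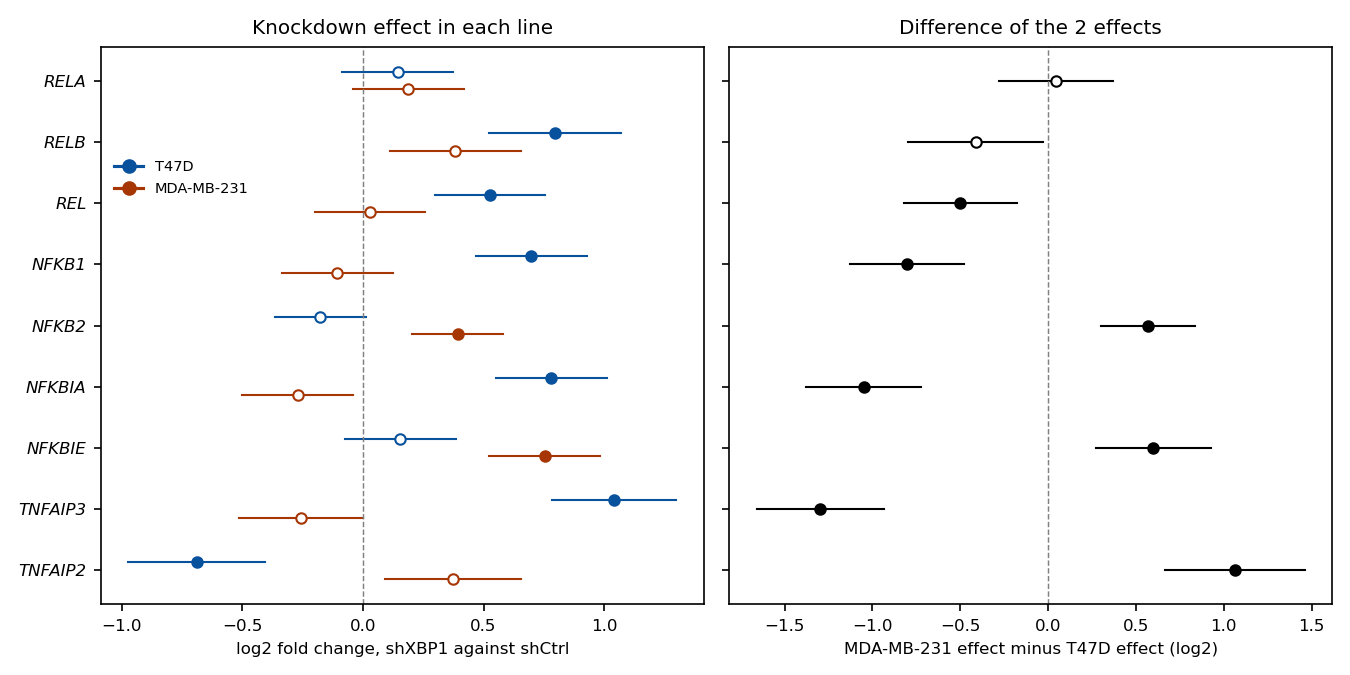
Left, log2 fold change of shXBP1 against shCtrl for each measured NF-kB gene in T47D (blue) and MDA-MB-231 (brown); right, the effect in MDA-MB-231 minus that in T47D. Points are limma estimates, bars are 95% intervals before adjustment, and filled points have an adjusted p under 0.05; the filled points are TNFAIP3, RELB, NFKBIA, NFKB1, REL and TNFAIP2 in T47D and NFKBIE and NFKB2 in MDA-MB-231.

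Several members were covered by more than 1 probe set, and these were also tested singly, with p-values adjusted over 41091 probe sets. Probe sets of the same gene are not separate genes, and REL alone had 5 of the 19. In T47D, 9 of the 19 probe sets rose and 1 fell, against 13.2% and 11.0% of all probe sets (24.3% in all). In MDA-MB-231, 2 rose and 2 fell, against 7.80% and 8.03% (15.8% in all). The difference between the lines passed for 3 probe sets as positive and 8 as negative, against 9.67% and 11.5% (21.1% in all). Between the lines with shCtrl, 5 were higher and 4 lower in MDA-MB-231, against 22.8% and 21.6% (44.4% in all), and with shXBP1 5 and 5, against 23.0% and 23.0% (46.0% in all). Of the 19, 3 lay below the median of all probe sets in every group mean, and none of these changed in either line.

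The second TNFAIP3 probe set read 7.67 and 7.75 with shCtrl and 8.99 and 9.09 with shXBP1 in T47D, and 11.09 and 10.94 against 10.13 and 10.54 in MDA-MB-231. It rose in T47D (1.33, SE 0.144, adjusted p = 0.000391) and, unlike the brighter one, fell in MDA-MB-231 (-0.68, SE 0.144, adjusted p = 0.0152), so both probe sets had the same signs. For REL, 4 of 5 probe sets rose in T47D, by 0.53, 1.31, 1.18 and 0.91 in order of brightness. The fourth of them read 6.22 and 6.01 with shCtrl and 4.94 and 5.46 with shXBP1 in MDA-MB-231, a fall of 0.92 (adjusted p = 0.013) that the other REL probe sets did not show (values of -0.03 to 0.16). What this probe set detects apart from the others was not tested. The second NFKB2 probe set was at -0.29 in T47D and 0.09 in MDA-MB-231, and the dimmer TNFAIP2 probe set at -0.25 and 0.10, none of which passed.

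**Figure D3:**
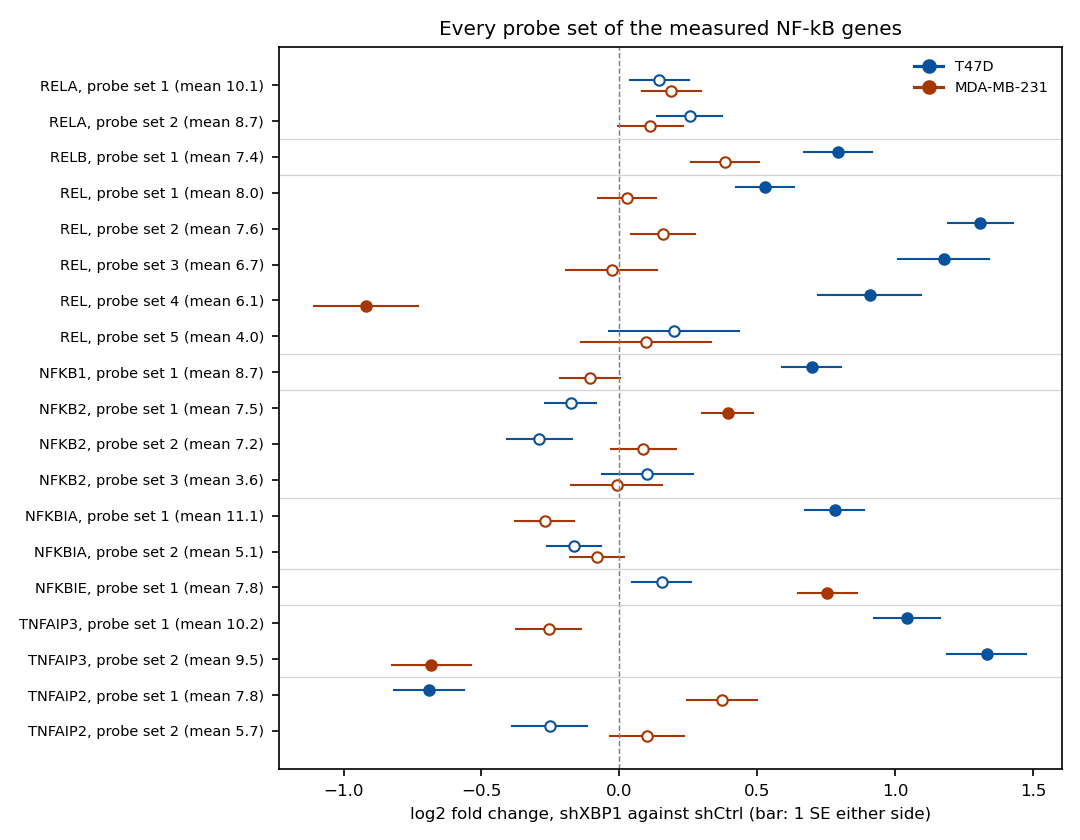
Log2 fold change of shXBP1 against shCtrl for each of the 19 probe sets of the measured NF-kB genes, numbered by brightness within each gene with the mean log2 level in brackets; points are T47D (blue) and MDA-MB-231 (brown), bars are 1 SE either side, and filled points have an adjusted p under 0.05. The probe sets of TNFAIP3 lie at 1.04 and 1.33 in T47D and at -0.26 and -0.68 in MDA-MB-231.

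The inhibitor genes TNFAIP3 and NFKBIA differed between the lines in opposite directions. With the control hairpin, TNFAIP3 was 6.42-fold higher in MDA-MB-231 than in T47D (2.68, SE 0.111, adjusted p = 5.48e-07), and NFKBIA was 2.02-fold lower (-1.01, SE 0.0988, adjusted p = 5.76e-05). RELB (0.54, adjusted p = 0.00513) and NFKB1 (0.52, adjusted p = 0.00259) were higher in MDA-MB-231, and REL (-0.72, adjusted p = 0.000404) and NFKBIE (-0.36, adjusted p = 0.017) were lower. Thus 3 genes were higher and 3 lower, where 23.7% and 25.2% of all genes were (49.0% in all). NFKB2 (-0.05), RELA (-0.19) and TNFAIP2 (-0.18) did not pass. NFKBIE did not pass after removal of T47D shCtrl replicate 1 (adjusted p = 0.0933) or MDA-MB-231 shCtrl replicate 1 (0.091), and REL was -0.20 (adjusted p = 0.117) averaged over its probe sets. NFKBIA was -0.51 averaged likewise.

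With the XBP1 hairpin the lines were compared in the same way, and these values share the shXBP1 arrays with the knockdown effects. NFKBIA was 4.18-fold lower in MDA-MB-231 (-2.06, SE 0.0988, adjusted p = 1.03e-06) and REL 2.33-fold lower (-1.22, adjusted p = 1.7e-05). TNFAIP3 was 2.61-fold higher (1.38, SE 0.111, adjusted p = 1.69e-05), TNFAIP2 1.84-fold higher (0.88, adjusted p = 0.000405) and NFKB2 1.43-fold higher (0.52, adjusted p = 0.000877). NFKB1 was lower by a small margin (-0.28, adjusted p = 0.0471), a call that was lost without any 1 of the MDA-MB-231 or T47D shXBP1 arrays (adjusted p = 0.0629 to 0.164), with the replicate block (0.0549), in a fit of the 4 shXBP1 arrays alone (0.051), after quantile normalization was applied again (0.0652) and among probe sets tested singly (0.0653). In this comparison 3 genes were higher and 3 lower, where 25.9% and 25.0% of all genes were (50.8% in all). RELB (0.13), NFKBIE (0.24, adjusted p = 0.0783) and RELA (-0.14) did not pass. NFKBIE passed with dim genes left out (adjusted p = 0.0463) and after quantile normalization was applied again (0.33, adjusted p = 0.0332).

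Ordered by group mean, TNFAIP3 ran from MDA-MB-231 shCtrl (11.31 ± 0.05) and MDA-MB-231 shXBP1 (11.06 ± 0.12) through T47D shXBP1 (9.67 ± 0.02) to T47D shCtrl (8.63 ± 0.17), and the difference between the first 2 did not pass. NFKBIA ran from T47D shXBP1 (12.22 ± 0.02) and T47D shCtrl (11.44 ± 0.07) to MDA-MB-231 shCtrl (10.42 ± 0.02) and MDA-MB-231 shXBP1 (10.15 ± 0.15), and the difference between the last 2 did not pass. RELB was lowest in T47D shCtrl (6.85 ± 0.07), and its other groups lay between 7.39 ± 0.22 and 7.77 ± 0.06, where the arrays of MDA-MB-231 shCtrl were the most spread. NFKBIE was lowest in MDA-MB-231 shCtrl (7.43 ± 0.09) and highest in MDA-MB-231 shXBP1 (8.18 ± 0.11). REL was highest in T47D shXBP1 (8.78 ± 0.10), next in T47D shCtrl (8.25 ± 0.01) and lowest in both MDA-MB-231 groups (7.56 ± 0.05 and 7.53 ± 0.12). RELA had the narrowest range of group means, 0.33. Here each value is a mean ± SD with n = 2.

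The rest of the pathway was read from lists of ligands and receptors, adaptors, kinases, further inhibitors and cofactors, and target genes. Of 98 genes, 89 were measured. In T47D 27 rose and 12 fell, and in MDA-MB-231 17 rose and 9 fell, where 15.5% of all genes rose and 13.5% fell in T47D and 10.6% and 6.68% in MDA-MB-231. These lists were drawn up with earlier results of these data known. The list medians in T47D lay between 0.05 (adaptors) and 0.23 (kinases), and in MDA-MB-231 between -0.02 (adaptors) and 0.14 (ligands and receptors).

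Upstream of the IkB kinases, 5 of 19 ligand and receptor genes rose and 1 fell in T47D, and 2 rose and 2 fell in MDA-MB-231. TLR3, a receptor for double-stranded RNA, rose in both lines (1.13, adjusted p = 0.000167, and 1.69, adjusted p = 0.000132). In T47D it went from 4.63 and 4.71 to 5.72 and 5.88, all below the median of all probe sets. TNFRSF11A, the receptor RANK, fell in both (-1.10, adjusted p = 0.00528, and -1.57, adjusted p = 0.00231). TNFRSF12A, the receptor of the cytokine TWEAK, rose in T47D by 1.40 (adjusted p = 0.000109), where it reached 12.02, close to the level in MDA-MB-231 (11.98 with shCtrl). The interleukin-1 receptor gene IL1R1 rose in T47D by 1.20 (adjusted p = 0.00147) and in MDA-MB-231 by 0.66 (adjusted p = 0.0357). Its MDA-MB-231 shCtrl arrays read 5.17 and 5.70, below the median of all probe sets. The MDA-MB-231 call did not hold without any 1 of the 8 arrays other than MDA-MB-231 shCtrl replicate 2 (adjusted p = 0.05 to 0.123), with the replicate block (0.0547) or in a fit of the 4 MDA-MB-231 arrays alone (0.0919). Its accessory chain gene IL1RAP rose in T47D (0.91, adjusted p = 0.000216, named after its value was seen) and fell in MDA-MB-231 (-0.84, adjusted p = 0.000779). Averaged over probe sets, the T47D changes were 0.71 for TLR3, -0.72 for TNFRSF11A and 0.67 for IL1R1, and those in MDA-MB-231 1.00 for TLR3 and 0.27 for IL1R1 (adjusted p = 0.139).

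Of 17 adaptor genes, 5 rose and 1 fell in T47D, and 4 rose and 1 fell in MDA-MB-231. TRAF3, which keeps the MAP3K14 kinase at low levels, fell in both lines (-0.85, adjusted p = 0.00365, and -0.75, adjusted p = 0.0127). In MDA-MB-231, TRAF3 did not pass without shCtrl replicate 1 (-0.66, adjusted p = 0.0707) or shXBP1 replicate 1 (-0.55, adjusted p = 0.0598), or averaged over its probe sets (-0.38, adjusted p = 0.0605). TRAF5 (1.25, adjusted p = 0.000459) and MALT1, a paracaspase (1.04, adjusted p = 0.000226), rose in T47D, and IRAK1, a kinase of the interleukin-1 pathway (0.685, adjusted p = 0.00392), and TAB3, a partner of the MAP3K7 kinase (0.65, adjusted p = 0.00226), rose in MDA-MB-231. IRAK2 passed in both lines (0.75, adjusted p = 0.00252, and 0.69, adjusted p = 0.00717). Averaged over probe sets, IRAK2 was 0.14 (adjusted p = 0.457) and 0.20 (adjusted p = 0.329), TRAF5 was 0.54 in T47D and TAB3 -0.06 in MDA-MB-231 (adjusted p = 0.686). 

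Of 9 kinase genes, 3 rose and 1 fell in T47D, and 2 rose in MDA-MB-231. IKBKB, a catalytic subunit of the IkB kinase complex, rose in T47D (0.76, adjusted p = 0.000831). MAP3K3 rose there as well (0.49, adjusted p = 0.00348), and MAP3K8, which encodes the kinase TPL2, fell (-0.90, adjusted p = 0.00153; -0.25 and adjusted p = 0.21 averaged over its probe sets). MAP3K14 rose in MDA-MB-231 (0.60, adjusted p = 0.00494). MAP3K7, which encodes the kinase TAK1, rose by 0.50 in T47D (adjusted p = 0.00664) and by 0.43 in MDA-MB-231 (adjusted p = 0.0237). In MDA-MB-231 this did not hold without shCtrl replicate 2 (adjusted p = 0.104), shXBP1 replicate 2 (0.0903) or either T47D shXBP1 array (0.0512), or in a fit of the 4 MDA-MB-231 arrays alone (0.0917).

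Of 15 further inhibitors and cofactors, 6 rose and 4 fell in T47D, and 3 rose and 2 fell in MDA-MB-231. RNF11, which acts with the TNFAIP3 enzyme, rose in T47D by 1.39 (adjusted p = 5.25e-05), TNIP2 by 0.65 (adjusted p = 0.00543) and N4BP1, an inhibitor of NF-kB signalling, by 0.98 (adjusted p = 0.000598; 0.48 averaged over probe sets). TNIP1, which encodes a partner of the TNFAIP3 enzyme, rose in MDA-MB-231 by 1.16 (adjusted p = 0.000798; 0.76 averaged over probe sets). OTULIN, a deubiquitinase of linear chains, fell there by 0.67 (adjusted p = 0.00468), and TAX1BP1 rose by 0.50 (adjusted p = 0.00508). In T47D, TNIP1 rose (0.51, adjusted p = 0.0131) and OTULIN fell (-0.38, adjusted p = 0.0287) as well, while TAX1BP1 fell (-0.38, adjusted p = 0.00859). NFKBIZ, an atypical nuclear IkB, rose by 0.87 in T47D (adjusted p = 0.00408) and by 0.95 in MDA-MB-231 (adjusted p = 0.0055), but its probe sets averaged 0.10 in MDA-MB-231 (adjusted p = 0.65).

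Of 29 target genes, 8 rose and 5 fell in T47D, and 6 rose and 4 fell in MDA-MB-231. In T47D the interferon regulatory factor gene IRF1 (1.02, adjusted p = 0.000996) and TNFAIP8 (1.01, adjusted p = 0.00147) rose, and KYNU, an enzyme of tryptophan breakdown, fell (-1.32, adjusted p = 5.64e-05). Averaged over probe sets, TNFAIP8 was 0.45 and KYNU -0.87. PLAU, the urokinase gene, rose too (0.83, adjusted p = 0.0147), but not without T47D shCtrl replicate 1 (adjusted p = 0.0864), shXBP1 replicate 1 (0.0831) or shXBP1 replicate 2 (0.0581). IRF1 (0.82, adjusted p = 0.0055) and PLAU (0.94, adjusted p = 0.0149) rose in MDA-MB-231 too. The shCtrl arrays of this line read 4.96 and 5.50 for PLAU, below the median of all probe sets. In MDA-MB-231 the chemokine gene CCL5 went from 6.003 and 6.389 to 11.22 and 10.91, IL6 from 9.89 and 9.84 to 11.38 and 11.18, and CD83 from 6.94 and 6.96 to 8.21 and 7.87. The changes were 4.87 (adjusted p = 1.92e-05), 1.41 (adjusted p = 0.000212) and 1.09 (adjusted p = 0.00149). CXCL8, the chemokine interleukin-8, fell from 9.68 and 9.72 to 8.79 and 8.58 (-1.01, adjusted p = 0.0016). In T47D it rose (0.67, adjusted p = 0.0047), from 4.63 and 4.54 to 5.11 and 5.40, all below the median of all probe sets. In T47D, CCL5 read 5.98 to 6.12 on the 4 arrays and IL6 4.86 to 5.24, near or below the median of all probe sets.

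**Figure D4:**
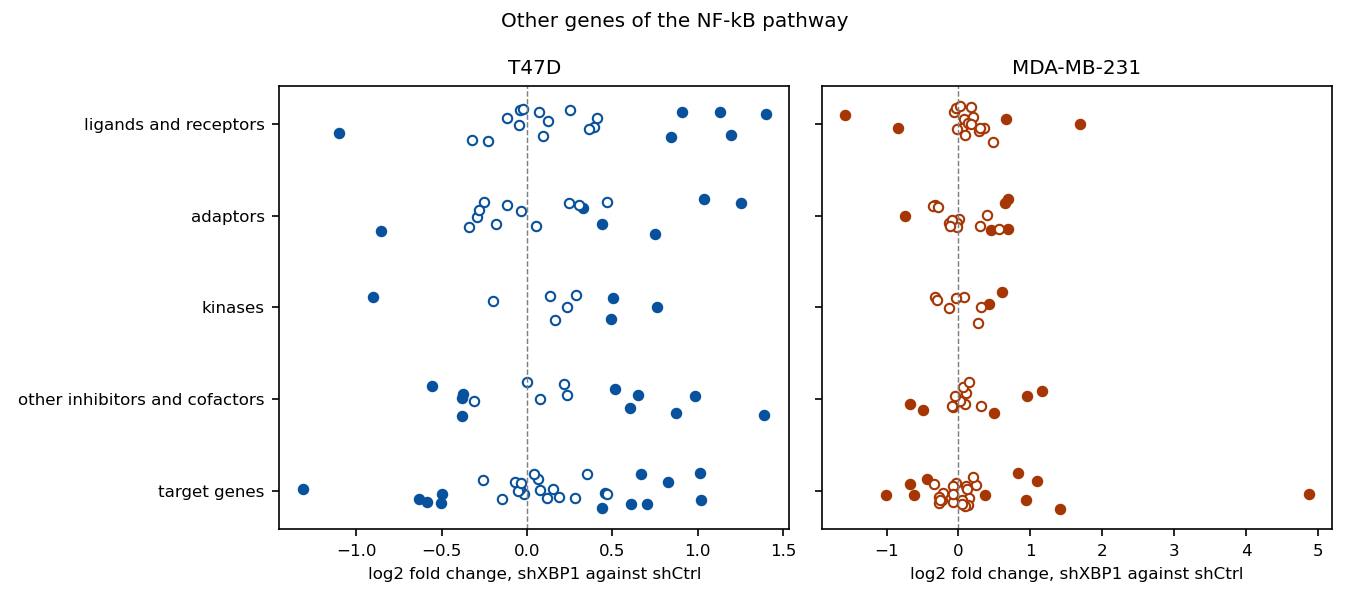
Log2 fold change of shXBP1 against shCtrl for the 89 measured genes of 5 NF-kB pathway lists in T47D (left) and MDA-MB-231 (right), 1 point per gene; filled points have an adjusted p under 0.05, vertical scatter within a list has no meaning, and the horizontal axes differ. The point far to the right in MDA-MB-231 is CCL5 at 4.87.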

How the data were processed

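RNA of 8 samples was measured on 8 one-colour Affymetrix arrays. The authors deposited a table of log2 values for 54675 probe sets, made with RMA and affy 1.30.0 per the submitters' processing notes. No source used here says which arrays were normalized as a set. The values (2.75 to 15.6; array medians 5.87 to 5.91) were used without further normalization. RMA compresses changes of dim probe sets, and the number of arrays limits the precision (median SE 0.119 per knockdown effect). Probe sets were named through the platform annotation: 41091 had 1 symbol, 1801 had several and were not used. Each gene was its probe set with the highest mean.

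Group means were fitted to all 8 arrays with limma 3.58.1 in R 4.3.3 (lmFit, eBayes; 7.62 degrees of freedom after moderation). The tests were two-sided with Benjamini-Hochberg adjustment over 19775 genes, for 5 contrasts; exact permutation of 2 against 2 arrays cannot go below p = 0.333. The code was checked on simulated data. The members and lists were chosen with earlier results of these data known. The text names every member and, from each pathway list and line, up to 4 changed genes with the largest change. Outside this rule, it also gives IL1RAP, TNIP1, OTULIN, TAX1BP1, CXCL8, CCL5 and IL6 in T47D and IRF1 and PLAU in MDA-MB-231. These genes had been named for the other line. The groups share replicate numbers, but deviations of same-numbered arrays correlated at only -0.069 to 0.038 between groups, so the numbers were not taken as pairs. The alternatives were the mean over probe sets, each probe set singly, a filter on dim genes, fewer arrays in the fit, trend and robust fitting, quantile normalization again, a replicate block and leaving out each array.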

Additional observations from a re-analysis of the deposited data

Results flagged for a closer look

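The knockdown effect differed between the lines for 7 of the 9 measured NF-kB genes by limma's test of the difference itself (the effect in MDA-MB-231 less that in T47D, adjusted p under 0.05). Of all genes tested, 24.8% passed this test. The values were -1.3 for TNFAIP3, -1.05 for NFKBIA, -0.80 for NFKB1 and -0.50 for REL, whose effects were higher in T47D. They were 1.06 for TNFAIP2, 0.60 for NFKBIE and 0.57 for NFKB2, whose effects were higher in MDA-MB-231. The REL and NFKBIE calls were lost in several fits with an array left out, and the NFKB2 call when its probe sets were averaged. The REL call was also lost with the replicate block and after quantile normalization was applied again. For TNFAIP3, NFKBIA, NFKB1, NFKB2 and TNFAIP2 the effects in the lines had opposite signs. In the main analysis, by the brightest probe set, none of these 5 genes passed the test in both lines. The second TNFAIP3 probe set, tested singly, passed in both, at 1.33 in T47D and -0.68 in MDA-MB-231. With 2 arrays per group, no group was large enough to be screened for outlying arrays.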

How the results depend on the processing

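The 6 T47D calls and the 3 T47D members that did not pass kept their direction and side of the threshold under all 15 alternatives. In MDA-MB-231, 3410 genes were called, but 1897 when only the 4 arrays of that line were fitted, and 2063 to 2931 when any 1 array was left out. Members called there numbered 2, but 4 with dim genes left out, 4 with every probe set on its own, 1 with only those 4 arrays, and 1 to 2 when an array was left out (1 without MDA-MB-231 shXBP1 replicate 1). Signs turned only for values that had not passed in the main analysis, apart from TAB3. In MDA-MB-231, REL was -0.133 averaged over probe sets, -0.919 for the probe set with its lowest p and -0.0575 to 0.112 with 1 array left out, and TAB3 was -0.0641 averaged over probe sets. The difference between lines for RELA was -0.0496 averaged, -0.143 for the probe set with the lowest p and -0.0585 to 0.147 with 1 array left out. Between the lines with shCtrl, NFKB2 was 0.0831 averaged and 0.393 for the probe set with the lowest p. The cause of these shifts was not tested, beyond probe sets of a gene differing and fewer arrays entering a fit.

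The groups share replicate numbers, but same-numbered arrays did not deviate together, so they share only a number. With the replicate number as a block, 5421, 2941, 4466, 9472 and 9862 genes were called in T47D, in MDA-MB-231, for their difference and between the lines with shCtrl and with shXBP1. The block called 6, 2, 6, 6 and 5 members, losing REL in the difference (adjusted p = 0.0553) and NFKB1 between the lines with shXBP1 (0.0549). Changes of dim probe sets are compressed, and no detection calls were used.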

Other observations

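Among all genes, those whose values ran most closely with TNFAIP3 over the 8 arrays were MYO10, an unconventional myosin of filopodia (Pearson r = 0.999), CRTC3, a coactivator of CREB (0.998), and ACKR3, an atypical chemokine receptor (0.998). MYO10 averaged 8.69 in T47D shCtrl, 9.88 in T47D shXBP1, 11.59 in MDA-MB-231 shCtrl and 11.29 in MDA-MB-231 shXBP1. The 8 arrays share the 2 lines, whose difference makes up most of each range, so many genes that are higher in MDA-MB-231 would correlate.

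The genes closest to RELB were FKBP11, a prolyl isomerase of the secretory pathway (Pearson r = 0.989), the transcriptional repressor gene ERF (0.984) and ANAPC4, a subunit of the anaphase-promoting complex (0.982). FKBP11 averaged 6.67 and 7.50 in T47D with shCtrl and shXBP1 and 7.24 and 7.71 in MDA-MB-231. These genes were selected as the highest correlations among 19775 genes, and the values are descriptions.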
